A study of Acipenser schrenckii with 5 samples.

Results

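The miR-15, miR-16 and miR-457 family was measured with 20 of the 663 miRNA probes of the array, 9 for miR-15, 6 for miR-16 and 5 for miR-457. The members were chosen by name alone, as every probe whose name, after the species prefix, starts with miR-15, miR-16 or miR-457 with no further digit, whatever the species, letter or arm. No measured value entered this rule, though it was set with earlier results of these data known. Liver, spleen, brain, muscle and heart of 1 Amur sturgeon (*Acipenser schrenckii*) of 5 months, another individual than the one that was sequenced, were each hybridized to 1 single-colour (Cy3) µParaflo array. The labels name no treatment, and the brain array is labelled "Bain". Total RNA was the starting material, from 2 to 5 µg per the labels, and the small RNAs were tailed, tagged and bound to short probes made for known miRNAs of other fish. Each probe stands in 5 repeat spots. With 1 fish and 1 array per tissue there is no replicate of a tissue and no test between tissues, and every error below is the SD over the 5 repeat spots, which is technical.

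A miRNA finds its target mRNAs mainly through its seed, bases 2 to 8 from the 5′ end, so miRNAs with the same seed share many predicted targets. In mammals miR-15 and miR-16 come from shared transcripts, act on mRNAs such as those of the survival protein BCL2 and of cyclin D1, and are known as brakes on cell division and survival. miR-457 is a fish miRNA with the same seed, and its own role is less well known.

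The sequences below are those the probes were made for, as given in the scanner files, and they belong to zebrafish (dre), common carp (ccr), medaka (ola), pufferfish (fru) and channel catfish (ipu). They are not read from the sturgeon, and no genome position was assigned here. The first set shows the seed, in capitals, and how far the 3 branches of the family differ behind it.
dre-miR-16b: uAGCAGCAcguaaauauuggag
dre-miR-16a: uAGCAGCAcguaaauauuggug
ola-miR-16: uAGCAGCAcguaaauauuggc
dre-miR-16c: uAGCAGCAuguaaauauuggag
dre-miR-15b: uAGCAGCAcaucaugguuugua
dre-miR-15a-5p: uAGCAGCAcagaaugguuugug
dre-miR-457b: aAGCAGCAcauaaauacuggag

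The seed AGCAGCA is held by 14 of the 20 members and by no other of the 663 probes. Among the rest, dre-miR-15c and fru-miR-15b read AGCAGCG, ccr-miR-457a and ccr-miR-457b start 1 base later so that bases 2 to 8 read GCAGCAC, ipu-miR-16c reads CAGCAGC, and dre-miR-15a-3p is the opposite arm of the hairpin with AGGCCGU. Behind the seed the branches part. Counted from 1 at the 5′ end, with the base of dre-miR-16b first, dre-miR-16a carries A21U, dre-miR-16c carries C9U, and dre-miR-457b carries U1A, G10A and U17C. With the base of dre-miR-15a-5p first, dre-miR-15b carries G11U, A12C and G22A. The sequence of dre-miR-16b stands for the miR-16 of 5 fish species in the files, the most of any member.

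The second set is shown because it holds the miR-15 and miR-457 sequences whose detection is compared further on with that of a near-identical probe, and ipu-miR-16c, whose letters depart from the other miR-16 probes. The capitals again mark bases 2 to 8.
fru-miR-15a: uAGCAGCAcggaaugguuugug
ola-miR-15a: uAGCAGCAcggaaugguuug
fru-miR-15b: uAGCAGCGcaucaugguuugua
dre-miR-457a: aAGCAGCAcaucaauauuggca
ipu-miR-457b: uAGCAGCAcaucaauauuggca
ccr-miR-457a: aGCAGCACaucaauauuggc
ipu-miR-16c: cCAGCAGCacggucaauacug

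The deposited value of a spot is its raw density, a linear intensity. Its median over the 3315 probe spots was between 92.2 and 167.7 on the 5 arrays, against 52 to 98.4 over the 361 empty spots. Signal below is the density after background correction and normalization between the arrays, as a mean over the 5 spots of a probe. Detection on an array asked that 50% or more of a probe's spots stand over 3 SD of the empty spots above the empty spots around them, with a spot CV under 0.5. The empty spots of the liver array had an SD of 58.5, and those of the remaining arrays 4.9 to 17.6. A robust SD, which outlying spots move little, was 13.2 in liver and 4.3 to 6.8 elsewhere. The liver limit thus rested on outlying empty spots. The lowest detected Signal was 366 in liver and from 28 to 58.2 elsewhere, so under this limit a dim probe could not be detected in liver. The tissue labels were checked with known tissue miRNAs. All 4 probes of miR-122 were highest in liver, 12 of 13 probes of miR-9 and miR-124 in the array labelled "Bain", all 11 of miR-206, miR-133a and miR-1 in muscle, all 3 of miR-499 in heart and 9 of 15 for white cell miRNAs in spleen. Pancreas miRNAs also had their highest summed Signal in liver (7 of 7 probes highest there), and skin miRNAs had theirs in muscle (7 of 10 probes).

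Of the 20 members, 15 were detected in at least 1 tissue, where 71.9% of all 663 probes were. All 5 tissues showed 5 members, dre-miR-16a, dre-miR-16b, ola-miR-16, dre-miR-15b and ccr-miR-15b, against 25.6% of all probes. Both shares are close to those of the array as a whole. By tissue, 5 members were detected in liver (29.7% of all probes), 13 in spleen (50.2%) and 15 in brain (55.8%), with 15 in muscle (65%) and 14 in heart (52%). The 5 members below detection in every tissue were dre-miR-15a-3p, dre-miR-15c, fru-miR-15b, ola-miR-15a and dre-miR-457a, with Signal from 22.2 to 60.6 over the 5 tissues.

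The tissue with the highest Signal was spleen for 5 of the 15 detected members, where it was for 22.6% of the 477 detected probes. It was brain for 7 members (32.5% of the 477) and heart for 3 members (7.55%). No member was highest in liver (14.7%) or in muscle (22.6%). The 5 members highest in spleen were the same probes that were detected in all 5 tissues, which in liver asked for a bright probe. That match changed with the detection limit. dre-miR-457b, highest in brain, was detected in all 5 tissues with a robust SD. dre-miR-15b was lost in liver at 5 SD, and ola-miR-16 at 80% of the spots. Which tissue led depended on the normalization. With 75th percentile scaling 5 members were highest in liver, none of them detected there, and 1 in brain, and quantile normalization left 3 in brain and gave 7 in heart. With none between the arrays, 0 members were highest in spleen and 11 in heart. The heart array also had the highest raw density for all 3 miR-16 probes named first above. In that setting the heart array was the brightest over the probes detected in all 5 tissues. Their median log2 Signal was 11.57 there and 9.11 to 10.87 on the other arrays. Fewer cells of a type and less RNA per cell cannot be told apart in these bulk samples.

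dre-miR-16b had Signal 9993 ± 360 in spleen, 6180.2 ± 216.2 in heart, 6037 ± 255 in brain, 5104 ± 1322 in liver and 4729 ± 255 in muscle. In the main setting spleen stood apart, 1.62 ± 0.0812 times heart and 1.66 ± 0.0919 times brain. With quantile normalization it was 1.02 times the highest other tissue. Heart and brain (1.02 ± 0.0561) and liver and muscle (1.08 ± 0.286) did not differ beyond their spots. Neither did heart and liver (1.21 ± 0.316) nor brain and liver (1.18 ± 0.31), where the liver spots ran from 1734 to 3039 in raw density. Heart over brain was 2.34 with quantile normalization, 1.62 with none and 1.55 with 75th percentile scaling, so the place of heart was set by the processing. The raw density medians behind these values were 12504 in spleen, 15497 in heart, 9787 in brain, 2757 in liver and 2193 in muscle. The normalization, not the raw density, thus placed spleen above heart. Before normalization the heart array was also brighter over the probes detected in all 5 tissues. Their median log2 Signal was 11.57 in heart and 10.03 in spleen.

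dre-miR-16a, 1 base apart from it, had Signal 7725 ± 362 in spleen, 4929 ± 198 in heart, 4868 ± 181 in brain, 3933 ± 139 in muscle and 3159 ± 1180 in liver. Spleen was 1.57 ± 0.0968 times heart and 1.59 ± 0.0949 times brain, and heart over brain was 1.01 ± 0.0554, or 2.17, 1.61 and 1.53 under quantile normalization, none and 75th percentile scaling. The wide liver error came from 1 spot with a raw density of 518, where the liver median was 1689. The profiles of dre-miR-16a and dre-miR-16b, each centred on its own mean over the 5 tissues, differed by a root mean square of 0.15 on the log2 scale.

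ola-miR-16 had Signal 6527 ± 345 in spleen, 4800 ± 135 in brain, 4666 ± 239 in heart, 3858 ± 492 in muscle and 1680 ± 944 in liver. Spleen was 1.36 ± 0.0814 times brain, the tissue next below it. Its liver spots ran from 257 to 1291 in raw density, so that muscle over liver, at 2.3 ± 1.32, was within the spread of the spots. Heart over brain was 0.972 ± 0.0568 here and 1.76 with quantile normalization. All 3 probes thus had spleen first wherever the arrays were normalized, but the size of its lead depended on the processing. With quantile normalization spleen was 1.02 times the highest other tissue for dre-miR-16b, 1.13 times for dre-miR-16a and 1.22 times for ola-miR-16. The order of heart and brain depended on the processing as well.

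dre-miR-16c, which carries C9U against dre-miR-16b, had brain first. Its Signal was 527 ± 177 in brain, 427 ± 44.1 in heart and 422 ± 22.1 in spleen, with 376 ± 32.5 in muscle and no detection in liver. No spleen peak was seen: spleen over muscle was 1.12 ± 0.113 and heart over spleen 1.01 ± 0.117. Brain over heart, at 1.23 ± 0.434, was within the spread, since 1 brain spot had a raw density of 270 where the others had 549 to 673. Over the 4 tissues where both were detected its profile lay 0.40 from that of dre-miR-16b (root mean square, log2). The distance of ola-miR-16 from dre-miR-16b, 0.49, was taken over 5 tissues, liver with its scattered spots included. The 2 distances are therefore not on the same tissues. With log2 Signal centred on the 4 tissues other than liver, spleen was 0.62 for dre-miR-16b, 0.42 for ola-miR-16 and -0.04 for dre-miR-16c. In the same order, brain was -0.1, -0.02 and 0.28, muscle -0.45, -0.34 and -0.21, and heart -0.07, -0.06 and -0.03. On these tissues ola-miR-16 lay nearer to dre-miR-16b than dre-miR-16c did.

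**Figure D1:**
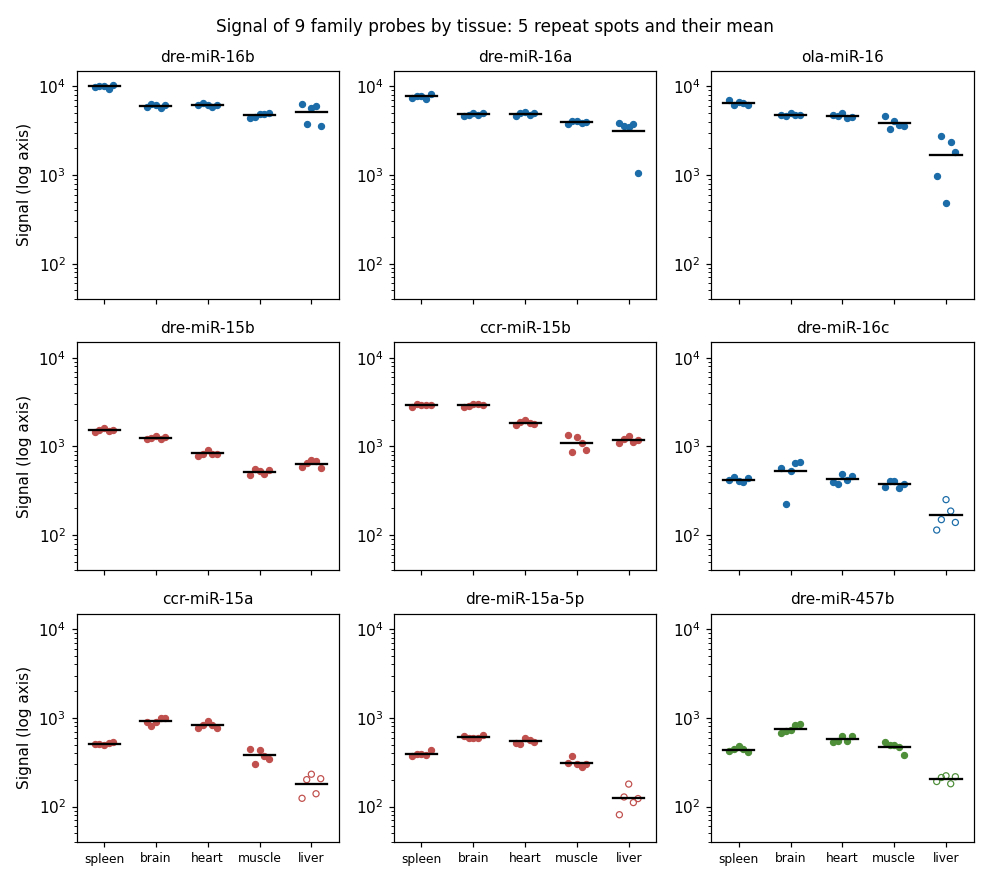
Signal (log axis) of the 9 family probes that were detected in all 5 tissues or had Signal above 500 in a tissue, by tissue, with each of the 5 repeat spots as a point and their mean as a bar. Open points are tissues where the probe was not detected. The 3 miR-16 probes of the top row are highest in spleen, while dre-miR-16c, ccr-miR-15a, dre-miR-15a-5p and dre-miR-457b have their highest mean in brain.

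In the main setting the miR-15b probes shared the spleen with miR-16 but had brain beside it. dre-miR-15b had Signal 1524 ± 60.1 in spleen, 1249 ± 42.2 in brain, 835 ± 41.5 in heart, 636 ± 57.1 in liver and 518 ± 32.6 in muscle, with spleen 1.22 ± 0.0634 times brain and 1.83 ± 0.116 times heart. Each tissue differed from the next by more than its spots. ccr-miR-15b, which is 1 base shorter and otherwise the same, had Signal 2921 ± 75.8 in spleen, 2919 ± 109 in brain, 1847 ± 96.1 in heart, 1180 ± 78.5 in liver and 1100 ± 209 in muscle. Here spleen and brain were level, at 1 ± 0.0455, and so were liver and muscle, at 1.07 ± 0.215. The 2 profiles differed by 0.13 (root mean square, log2), about as little as those of dre-miR-16a and dre-miR-16b. The place of brain moved with the processing. Over 7 settings spleen over brain ran from 0.848 to 1.74 for dre-miR-15b and from 0.729 to 1.68 for ccr-miR-15b. Quantile normalization gave the highest value of both.

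The miR-15a probes had brain and heart ahead of spleen. ccr-miR-15a had Signal 914 ± 75.2 in brain, 830 ± 61.7 in heart and 511 ± 12.7 in spleen, with 378 ± 57.1 in muscle and no detection in liver. Brain and heart did not differ beyond the spots (1.1 ± 0.122), while brain was 1.79 ± 0.154 times spleen and at least 2.5-fold above liver. dre-miR-15a-5p, 1 base longer, had Signal 608 ± 26 in brain, 544 ± 35.3 in heart and 395 ± 25.9 in spleen, with 313 ± 34.2 in muscle and again no detection in liver. Its brain was 1.12 ± 0.0869 times heart, 1.54 ± 0.121 times spleen and at least 1.66-fold above liver. Such a bound divides by the lowest Signal detected in liver, or by the measured liver Signal where that is higher. The profiles of ccr-miR-15a and dre-miR-15a-5p lay 0.14 apart over the 4 tissues where both were detected (root mean square, log2), and dre-miR-15a-5p lay 0.52 from dre-miR-15b over the same 4. The lead of brain over heart turned with the scaling in both miR-15a probes: it was 0.759 for ccr-miR-15a and 0.83 for dre-miR-15a-5p with 75th percentile scaling.

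Of the miR-457 probes, dre-miR-457b alone had Signal above 500 in a tissue. It had Signal 758 ± 82.8 in brain, 576 ± 45.1 in heart and 475 ± 56.5 in muscle, with 439 ± 28 in spleen and no detection in liver. Brain was 1.32 ± 0.177 times heart, 1.72 ± 0.218 times spleen and at least 2.07-fold above liver, while muscle over spleen, at 1.08 ± 0.146, was within the spread. The profile lay 0.57 from that of dre-miR-16b over the 4 tissues where both were detected (root mean square, log2). Brain over heart fell to 0.921 with 75th percentile scaling.

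The other 6 detected members were dim. Their Signal was 39.1 to 188 in liver, where 0 of the 6 were detected, 46.9 to 245 in spleen (4 detected) and 67.8 to 341 in brain (all 6). It was 45.3 to 178 in muscle (all 6) and 59.1 to 295 in heart (5 detected). ipu-miR-457b (341 ± 66.4), fru-miR-15a (67.8 ± 9.98) and ccr-miR-457a were highest in brain. ipu-miR-16c (295 ± 47.6), ccr-miR-16c (193 ± 19.6) and ccr-miR-457b (118 ± 6.97) were highest in heart. The lead over the next tissue was within the spread for ipu-miR-16c (1.2 ± 0.221), ccr-miR-16c (1.17 ± 0.189) and fru-miR-15a (1.15 ± 0.193). The lowest Signal detected in liver, 366, is above every Signal of these 6 members, so liver held no detected probe at Signal of this size.

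Probes 1 base apart were detected in equally many tissues in some pairs and not in others. Of the 9 pairs of members 1 edit apart, 4 were detected in equally many tissues, such as dre-miR-16a and dre-miR-16b, and in 2 pairs only 1 of the probes was detected at all. Of the 7 pairs with 1 substitution and another length, 2 were detected in equally many tissues and in 3 only 1 of the probes was detected. The pairs that differed most are as follows. dre-miR-15a-5p was detected in 4 tissues and fru-miR-15a, which carries A10G against it, in 2. ola-miR-15a, with A10G and 2 bases fewer, was detected in 0 tissues. dre-miR-15b was detected in all 5 tissues and fru-miR-15b, which carries A8G in the seed, in 0. Among the miR-457 probes a pair differed by the first base alone: dre-miR-457a was detected in 0 tissues and ipu-miR-457b, which carries A1U against it, in 4. ccr-miR-457a, which lacks both that first base and the last base, was also detected in 4 tissues. Its profile lay 0.09 from that of ipu-miR-457b (root mean square, log2). These counts lean on the detection limit. With a robust SD of the empty spots 19 of the 20 members were detected in at least 1 tissue, fru-miR-15b in 2 tissues and dre-miR-457a in 1, while ola-miR-15a was still detected in 0. Leaving out 1 repeat spot brought fru-miR-15b to 1 tissue in some cases. Whether the sturgeon miRNAs carry the base of the detected probe was not tested, since no sturgeon sequence was used, and how far a probe binds a miRNA that differs from it by 1 base was not tested either.

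The ratio of spleen over brain could be formed for the 13 members detected in both tissues. Signal was higher in spleen for 6 of the 13, against 45.2% of the 283 probes of the array detected in both, and the median ratio was 0.91 for the family and 0.904 for the 283. The count and the median of the family were close to those of the array. The ratios of the 13 members ran from 0.465 to 1.66, where the lower and upper quartiles of the 283 were 0.494 and 2.03. The miR-16 and miR-15 branches each held probes on both sides of 1, while the miR-457 probes among the 13 were below 1. Each ratio was also computed under 6 other ways of processing, a check added after the ratios had been seen. The ratio was above 1 in all 7 settings for dre-miR-16b (1.28 to 2.39), dre-miR-16a (1.22 to 2.45) and ola-miR-16 (1.04 to 2.14). It was below 1 in all 7 settings for ccr-miR-15a (0.339 to 0.691), dre-miR-15a-5p (0.349 to 0.736), dre-miR-457b (0.34 to 0.696), ccr-miR-457a (0.182 to 0.532), ipu-miR-457b (0.17 to 0.504), dre-miR-16c (0.434 to 0.917) and ccr-miR-16c (0.362 to 0.991). For dre-miR-16c (0.8 ± 0.272) and ccr-miR-16c (0.91 ± 0.156) the ratios were not below 1 by more than their spots. The miR-15b probes and ipu-miR-16c changed side with the processing. dre-miR-15b and ipu-miR-16c were above 1 in 6 of 7 settings, and below it only with no normalization between arrays (0.848 and 0.71). In that setting the spleen array was dimmer than the brain array over the probes detected in all 5 tissues (median log2 Signal 10.03 and 10.87). ccr-miR-15b was above 1 in 5 of 7 settings, though its main ratio was level, at 1 ± 0.0455.

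**Figure D2:**
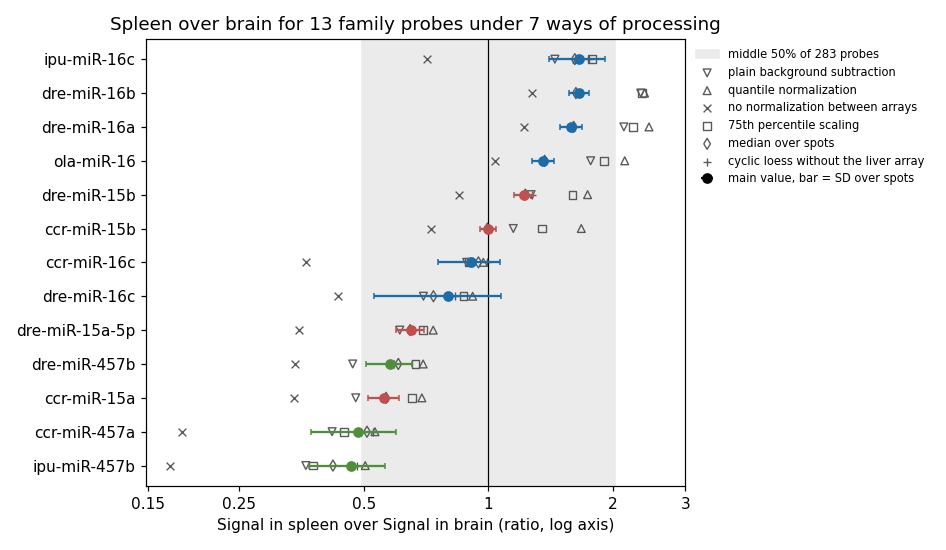
Signal in spleen over Signal in brain (ratio, log axis) of the 13 family probes detected in both tissues, where the filled point is the main value, its bar the SD over 5 spots, and the open marks and crosses are 6 other ways of processing; blue is miR-16, red miR-15 and green miR-457. dre-miR-16b, dre-miR-16a and ola-miR-16 stay right of the line at 1 under every setting and the miR-15a and miR-457 probes left of it, and the grey band from 0.494 to 2.03 holds the middle 50% of 283 probes.

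The brightness of the probes moved with this contrast inside the family. Across the 13 probes, which share 2 arrays, the ratio of spleen to brain and the mean log2 Signal had a Spearman correlation of 0.51. It was -0.17 across the 283 probes. The 13 hold near-identical probes, such as dre-miR-16a and dre-miR-16b, so they are not 13 separate measurements and the value is descriptive only. Blood cell miRNAs moved with spleen as well. The 6 probes of the red cell miRNAs miR-144 and miR-451 were all highest in spleen, with a summed Signal of 36754 there and 3704 in brain, 8279 in heart, 8866 in muscle and 9089 in liver. The 15 probes of white cell miRNAs summed to 60232 in spleen and 6768 in brain, 37331 in heart, 13303 in muscle and 13990 in liver. The part of brightness, of red cells and of white cells in the spleen values of miR-16 was not tested.

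Heart over spleen was above 1 for 8 of the 13 members detected in both, against 44.6% of the 298 probes of the array detected in both. It was above 1 in all 7 settings for ccr-miR-15a (1.62 to 4.06), dre-miR-15a-5p (1.38 to 3.61), dre-miR-457b (1.24 to 3.35), ipu-miR-457b (1.2 to 3.18), ipu-miR-16c (1.2 to 2.92) and ccr-miR-16c (1.02 to 2.76). It was above 1 in 6 of 7 settings for dre-miR-16c and ccr-miR-457a. For dre-miR-16a, dre-miR-16b, ola-miR-16, dre-miR-15b and ccr-miR-15b it was above 1 in 1 setting of 7, the one with no normalization between arrays, where it was 1.26 for dre-miR-16b, the least of the 5, and more for the other 4. For dre-miR-16c (1.01 ± 0.117) and ipu-miR-16c (1.2 ± 0.221) the main ratio was not above 1 by more than its spots. The remaining miR-16 probes stood on both sides. ccr-miR-16c (1.28 ± 0.197) was above 1, and dre-miR-16a, dre-miR-16b and ola-miR-16 were below 1 in the main setting. In spleen over brain, ipu-miR-16c had been above 1 in 6 of 7 settings.

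A common profile was drawn from the 5 members detected in all 5 tissues, as the log2 Signal of a probe minus its mean over the tissues. The median over these members was 0.72 in spleen (range 0.68 to 0.79), 0.29 in brain (-0.03 to 0.67), 0.01 in heart (-0.07 to 0.24), -0.39 in muscle (-0.76 to -0.03) and -0.57 in liver (-1.23 to -0.28). The other 165 probes detected in all 5 tissues had medians of -0.04 in spleen, 0.06 in brain and -0.17 in heart, with -0.03 in muscle and 0.04 in liver. The members were closest to each other in spleen and widest apart in liver. These 5 members hold near-identical probes, such as dre-miR-16a and dre-miR-16b, or dre-miR-15b and ccr-miR-15b. They are not 5 separate measurements. Over the 13 members detected in all 4 tissues other than liver, each centred on those 4 tissues, the median in spleen was -0.04 and that in brain 0.39, so the spleen median above 0 was seen in the 5 members and not over the 13. For the 5 members spleen kept a value above 0 under each alternative background correction, normalization and summary over spots. Liver and muscle stayed below 0 under the same settings. With no normalization these 2 arrays were also the dimmest over the probes detected in all 5 tissues (median log2 9.11 and 9.64). Their signs in that setting cannot be told apart from array brightness. Brain was -0.18 under quantile normalization and -0.02 when liver was left out of the centring.

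**Figure D3:**
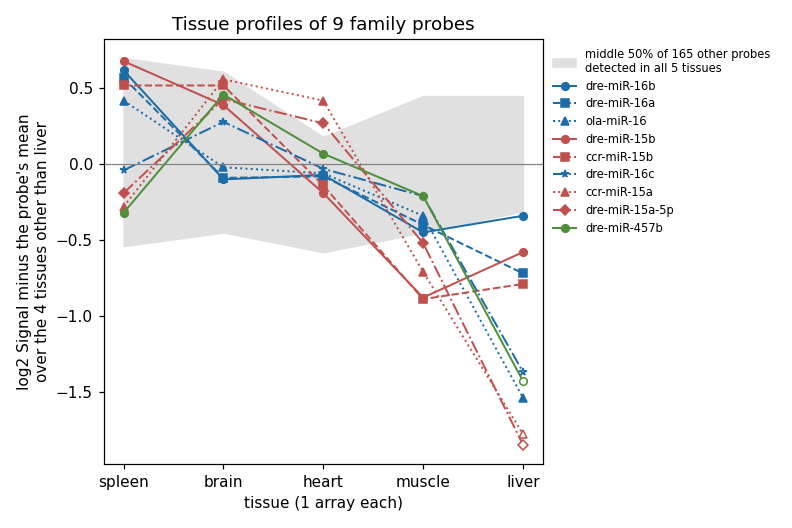
Tissue profiles of 9 family probes, as log2 Signal minus the probe's mean over the 4 tissues other than liver, with 1 line per probe and the middle 50% of 165 other probes in grey; blue is miR-16, red miR-15 and green miR-457. The dre-miR-16a, dre-miR-16b, ola-miR-16 and miR-15b probes start between 0.42 and 0.68 in spleen. ccr-miR-15a, dre-miR-15a-5p, dre-miR-457b and dre-miR-16c start between -0.32 and -0.04 and have their highest point in brain. Open liver points are measured Signal below detection.

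How far a member was kept to 1 tissue could be judged only in the brighter members. No member had its highest tissue at least 2-fold above the next, bounds included, where 32.5% of the 477 detected probes did, but only 7 of the 15 detected members were bright enough to pass over the liver bound, which asks for a Signal above 731. Among probes detected in all 5 tissues, 36.5% of 170 passed and 0 of the 5 members did. The highest tissue over the lowest was 2.11 ± 0.137 for dre-miR-16b, 2.45 ± 0.921 for dre-miR-16a, 2.66 ± 0.508 for ccr-miR-15b, 2.94 ± 0.218 for dre-miR-15b and 3.88 ± 2.19 for ola-miR-16. The median over the 165 other probes was 3.94. The smallest span, that of dre-miR-16b, was undercut by 38 of these 165, and the largest, that of ola-miR-16, by 82.

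The probes outside the family whose profile lay nearest to the mean profile of these 5 members were sought among the same 165. They were dre-miR-130a, at a root mean square of 0.29 on the log2 scale over 5 tissues, ccr-miR-30d at 0.31, ola-miR-181a-5p at 0.34, dre-let-7j at 0.35 and dre-miR-30b at 0.37. Of these, ola-miR-181a-5p alone was highest in spleen, with Signal 5440 in spleen and 3942 in brain, then 2836 in muscle, 2487 in liver and 2090 in heart, and the other 4 were highest in brain. Of the 5 members, dre-miR-15b, ccr-miR-15b, dre-miR-16a and dre-miR-16b lay 0.14 to 0.22 from the mean profile they helped to make, and ola-miR-16 lay 0.33 from it with 2 outside probes nearer.

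The closest relatives by seed outside the family were miR-103 and miR-107, which in mammals are grouped with miR-15 and miR-16 for their similar seed and have also been studied in lipid and insulin metabolism. Their 6 probes all carry bases 2 to 8 GCAGCAU, the family seed moved by 1 base.
ola-miR-103: aGCAGCAUuguacagggcuau
All 6 were detected in at least 4 tissues and all were highest in brain in the main setting, the only setting given for them. ola-miR-103 had Signal 1844 ± 55.9 in brain, 747 ± 10.5 in spleen, 744 ± 130 in liver, 458 ± 17.6 in muscle and 376 ± 20.5 in heart, with brain 2.47 ± 0.0825 times spleen. Over the 6 probes the highest tissue was 2 to 2.47 times the next, with errors up to 1.06. For ipu-miR-107b (2 ± 1.06) the lead was within the spread of the spots. Their second place was held by liver or spleen. The array carries 0 probes named miR-195, miR-497, miR-424, miR-322, miR-503 or miR-646, the other relatives looked for by name.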

How the data were processed

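The values deposited per array are scanner readings of each spot, its median pixel density and pixel SD. They are linear intensity values with no background taken off, which the authors read with a GenePix scanner and digitized with Array-Pro. A deposited table of processed values was not used, because its row names do not name the scanner probes. With limma 3.58.1 in R 4.3.3, normexp (offset 50) corrected the background and cyclic loess (3 iterations, log2 scale) normalized the arrays. The offset was subtracted again, and the 5 spots of a probe were averaged to give Signal. Other steps used Python 3.11.15, numpy 2.4.6, pandas 2.3.3, scipy 1.17.1 and matplotlib 3.10.9. Detection followed the criteria of the Methods, with the median of the 20 nearest of 361 empty spots as background, 3 times their SD, a spot CV under 0.5 and 50% of the spots. The 663 probes are 615 for fish miRNAs and 48 custom ones.

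Full values are given for members detected in all 5 tissues or above Signal 500, ranges for the others, and the 5 outside probes nearest in profile are named. The members, lists and rules were chosen with earlier results of these data known. The steps were tested on simulated data, where only large changes in bright probes were scored. That test does not bear on ratios near 1. Alternatives were plain background subtraction (floor 1), quantile normalization, none, scaling by the 75th percentile, the median over spots, each repeat spot left out, other detection limits (5 SD, a robust SD, 80% of the spots), folds of 1.5 and 3, and other sets of probes. Normalization without the liver array, centring without liver, and spleen over brain under every setting were added after the data had been seen. The number of arrays, 1 per tissue, limits the precision, and no p-value was computed.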

Additional observations from a re-analysis of the deposited data

How the results depend on the processing

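No difference between fish can be seen with 1 array per tissue, and the SD over spots covers the array surface only. Detection in liver needed a Signal of 366 under the main limit. No paired analysis was possible because each tissue has 1 array and no result comes from a test. The numbers of members detected in at least 1 tissue (15) and in all 5 (5) stayed within 1.5 times under every detection limit and with each spot left out, at 14 to 19 and 4 to 6. The tissue of the highest Signal moved with the scaling. Highest in spleen were 0 members with no normalization, in place of 5. Highest in brain were 3 with quantile normalization, 4 with none and 1 with 75th percentile scaling, in place of 7. Highest in heart were 7 with quantile normalization and 11 with none, in place of 3. Highest in liver were 5 with 75th percentile scaling, none detected there, and 1 when every member was counted, in place of 0. At 1.5-fold, 2 members passed in place of 0. The median profile of the 5 members (log2) was, with plain subtraction, -0.44 in liver, 0.83 in spleen, 0.02 in brain and 0.14 in heart. With quantile normalization it was 0.92 in spleen and -0.18 in brain, with -0.73 in muscle and 0.64 in heart. With no normalization it was -1.68 in liver and 0.97 in spleen, with 0.92 in brain, -1.51 in muscle and 1.33 in heart. With 75th percentile scaling it was -0.78 in liver, 1.12 in spleen, -0.96 in muscle and 0.53 in heart. With the median over spots liver was -0.44, and with each repeat spot left out it ran from -0.62 to -0.43. Over the 13 members detected in all 4 tissues other than liver the median was 0.23 in spleen and 0.55 in brain, with -0.26 in muscle and 0.25 in heart, but these values are centred on liver Signal that was below detection for 8 of the 13. Centred on the 4 tissues, a choice made after the data had been seen, spleen was -0.04 for the 13. For the 5 members so centred, spleen was 0.57, brain -0.02 and heart -0.08. The highest tissue over the highest of the others turned below 1 with no normalization for dre-miR-16b (0.791), dre-miR-16a (0.759), ola-miR-16 (0.674), dre-miR-15b (0.765, and 0.848 for spleen over brain), dre-miR-457b (0.878), dre-miR-15a-5p (0.795), ccr-miR-15a (0.728), ccr-miR-15b (0.721) and dre-miR-16c (0.871). The main ratios of these last 3 were within their spread of 1. It did so with 75th percentile scaling for dre-miR-457b (0.921), dre-miR-15a-5p (0.83), ccr-miR-15a (0.759) and dre-miR-16c (0.914), and with quantile normalization for dre-miR-15a-5p (0.928), ccr-miR-15a (0.813) and dre-miR-16c (0.971). The cause of these turns was not tested.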
